A study of Mus musculus with 2 samples.

Results

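The genes described here encode 7 families of developmental transcription factors: Pax, Sox, Tbx, Lhx, Gata, Nkx and Six-type homeobox genes. They were taken by name, as all autosomal protein-coding gene models of the mm9 GENCODE annotation whose symbol is a family prefix followed by a number, and for Nkx also by a hyphen and a second number. This gave 72 gene models of 71 symbols among 21418 autosomal protein-coding gene models. Sox4 has 2 models, since a short one lies inside the other, and their promoters overlap. The sex-linked members of these families were left out by this choice. All 72 models held at least 1 CpG that both libraries covered with at least 5 reads, called a shared CpG below, from 2 kb upstream of the gene 5′ end to the gene end. These were 14121 of the 1626655 shared CpGs counted the same way at autosomal protein-coding genes, and of 2654195 in all.

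The study asked what the binding of Uhrf1 to methylated histone H3 lysine 9 contributes to maintenance of DNA methylation. Uhrf1 KI mice are homozygous for a knock-in in which a neighbouring tyrosine and proline of the tandem Tudor domain are changed to alanines, which abolishes binding to H3K9me2/3 and is carried by every cell of the animal. WT mice carry the unchanged Uhrf1 gene. The targeting was done in R1 embryonic stem cells, which do not come from C57BL/6 mice. Liver DNA of 3-month-old C57BL/6 males was measured by reduced representation bisulfite sequencing (RRBS), in which MspI cuts DNA at CCGG and the fragments are bisulfite converted, so that CpG-rich DNA is read most. DNA of 3 KI mice was pooled into 1 library and DNA of 3 WT mice into 1 library. The KI library's genotype label reads knock out, whereas its title and the study describe a knock-in, and KI is used here.

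The KI library held 173109895 reads summed over the cytosines listed and the WT library 192144002. The median shared CpG had 37 reads in each, and at the transcription factor genes 31 in each. Each level below is the percentage of methylated reads, averaged over CpGs with equal weight, and the error behind ± is the binomial counting error of the reads. With 1 pooled library per genotype there is no replicate check. Every p-value compares the reads of these 2 libraries, not the genotypes, and is too small where reads span several CpGs or are PCR copies. Liver is a mixture of cells, so a changed mix of cells and a changed level per cell cannot be told apart. A call is defined below, and at all autosomal protein-coding genes 3.34% of promoters and 13.9% of bodies were called lower. Promoters of hepatocyte markers, 5 of which could be tested, had a median of 29.1% in KI and 39.6% in WT, and 3 of them, Hnf4a, Fgb and Apob, were called lower in KI. Promoters of 3 blood cell markers had medians of 65.2% in KI and 66.7% in WT, and that of Cd3e, a T cell receptor subunit, was called lower, with 48.5% in KI and 65.3% in WT. Of their 4 tested bodies, with medians of 52.4% in KI and 63.2% in WT, Ptprc, Emr1 and Csf1r were called lower. Of 6 hepatocyte marker bodies 3 were called lower, as was the body of the bile duct marker Krt7, with 31.6% in KI and 42.8% in WT. The other bile duct marker bodies were not called: Epcam had 67.2% in KI and 67.8% in WT, and Krt19 8.49% in KI and 10.4% in WT. Bodies of the endothelial markers Pecam1, Cdh5, Stab2 and Kdr and of the stellate cell markers Des, Pdgfrb and Reln were not called either. Promoters of 4 stellate cell markers had medians of 9.24% in KI and 9.17% in WT. The part of cell mix in the results below was not tested.

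These families lay out the embryo. Pax genes pattern the neural tube, kidney and eye, Sox genes act in stem cells, cartilage, neural crest and endothelium, and Tbx genes in mesoderm, heart and limbs. Lhx and Nkx genes specify neurons and foregut organs, Six-type genes act in muscle and sense organs, and Gata genes in blood, heart and endoderm. In adult tissues most of them are silent, and their CpG islands, which often stretch well into the gene, are commonly held by Polycomb proteins and free of DNA methylation. DNA methylation is copied after replication by Dnmt1, which Uhrf1 brings to hemimethylated CpGs.

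The stretches to which the results below return are shown here because they are parts of these genes with many shared CpGs or with large changes. They are read from the mm9 genome, 5′ to 3′ on the strand of the gene, and capitals mark the CpGs with at least 1 shared cytosine. The Sox21 stretch, chr14:118634296-118634513 on the reverse strand, lies in coding sequence 1739 bp into the gene and is the unmethylated stretch of a gene body with the most shared CpGs under 300 bases. The Pax3 stretch, chr1:78128494-78128697 on the reverse strand, the Sox5 stretch, chr6:144415376-144415479 on the reverse strand, and the Nkx2-2 stretch, chr2:147006528-147006673 on the reverse strand, lie in introns. The Tbx3 stretch, chr5:120124208-120124297 on the forward strand, is in a coding exon, and the Pax9 stretch, chr12:57810783-57810891 on the forward strand, is the end of the coding sequence. The Tbx1 stretch, chr16:18588747-18589014 on the reverse strand, lies upstream of the gene, inside its promoter.
Sox21 coding exon: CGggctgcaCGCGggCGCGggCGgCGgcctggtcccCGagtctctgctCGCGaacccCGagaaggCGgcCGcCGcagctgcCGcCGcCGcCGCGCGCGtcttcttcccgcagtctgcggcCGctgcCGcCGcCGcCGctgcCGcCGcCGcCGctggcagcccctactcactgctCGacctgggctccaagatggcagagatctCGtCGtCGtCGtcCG
Pax3 intron: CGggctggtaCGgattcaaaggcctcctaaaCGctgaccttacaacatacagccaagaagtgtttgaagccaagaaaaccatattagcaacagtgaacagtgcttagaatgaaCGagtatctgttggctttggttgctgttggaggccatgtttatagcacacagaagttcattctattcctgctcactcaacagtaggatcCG
Sox5 intron: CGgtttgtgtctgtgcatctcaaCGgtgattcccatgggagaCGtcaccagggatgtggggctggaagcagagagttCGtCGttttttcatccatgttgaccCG
Tbx1 promoter: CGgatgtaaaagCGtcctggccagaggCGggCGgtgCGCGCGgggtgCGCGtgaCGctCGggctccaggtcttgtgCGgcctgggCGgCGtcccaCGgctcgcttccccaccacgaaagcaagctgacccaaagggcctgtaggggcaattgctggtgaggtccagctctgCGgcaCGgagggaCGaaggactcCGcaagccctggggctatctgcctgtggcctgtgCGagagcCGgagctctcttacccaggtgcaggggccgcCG
Nkx2-2 intron: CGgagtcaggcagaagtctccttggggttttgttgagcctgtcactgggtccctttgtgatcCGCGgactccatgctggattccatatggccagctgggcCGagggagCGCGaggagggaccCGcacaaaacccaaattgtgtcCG
Tbx3 coding exon: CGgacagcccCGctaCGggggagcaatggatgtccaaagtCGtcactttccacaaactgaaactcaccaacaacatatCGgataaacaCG
Pax9 last coding exon: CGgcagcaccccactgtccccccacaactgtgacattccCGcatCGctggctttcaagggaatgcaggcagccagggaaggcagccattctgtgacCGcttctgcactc
The Sox21 stretch holds 38 CpGs in 218 bases, 36 of them covered, whereas the Pax3 stretch holds 5 in 204 bases.

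Both promoters and gene bodies of these transcription factors were mostly unmethylated in KI and WT livers alike. Over promoters, taken as 1 kb to either side of the gene 5′ end, the 4453 shared CpGs averaged 4.64% in KI and 4.82% in WT, a change of -0.19 ± 0.08 points that turned to 0.0493 points with reads summed over CpGs. Over gene bodies, from 1 kb downstream of the 5′ end to the gene end, the 9225 shared CpGs averaged 22.9% in KI and 24.0% in WT, a change of -1.04 ± 0.08 points, or -0.65 points without Sox5 and Pax5, the members with the most body CpGs. At all autosomal protein-coding genes the promoters changed by -0.32 points, with 5.07% in KI and 5.39% in WT. Their bodies changed by -2.50 points, with 53.2% in KI and 55.7% in WT. Relative to the WT level, the fall in the bodies was -4.33% for the transcription factors and -4.50% for all these genes.

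Few CpGs were methylated even inside the gene bodies. Of the body CpGs of the transcription factors, 68.0% were under 20% methylated in WT, against 32.9% at all autosomal protein-coding genes, and 18.6% against 53.2% were over 70%. With at least 5 shared CpGs required per region, 67 promoters and 67 bodies could be compared. Body levels had medians of 11.2% in KI and 13.0% in WT, and 40 of the 67 were under 20% in WT, which held for 1103 of 13703 autosomal protein-coding bodies. Promoter levels had medians of 2.58% in KI and 2.84% in WT, and 58 of the 67 were under 10% in WT. Low promoters were common at all autosomal protein-coding genes, with 10692 of 13456 under 10% in WT. Their medians were 0.655% in KI and 0.707% in WT. The flanks 1 to 2 kb upstream, 28 of which could be compared, had medians of 6.08% in KI and 7.29% in WT, against 47.9% in KI and 51.2% in WT for all autosomal protein-coding genes.

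**Figure D1:**
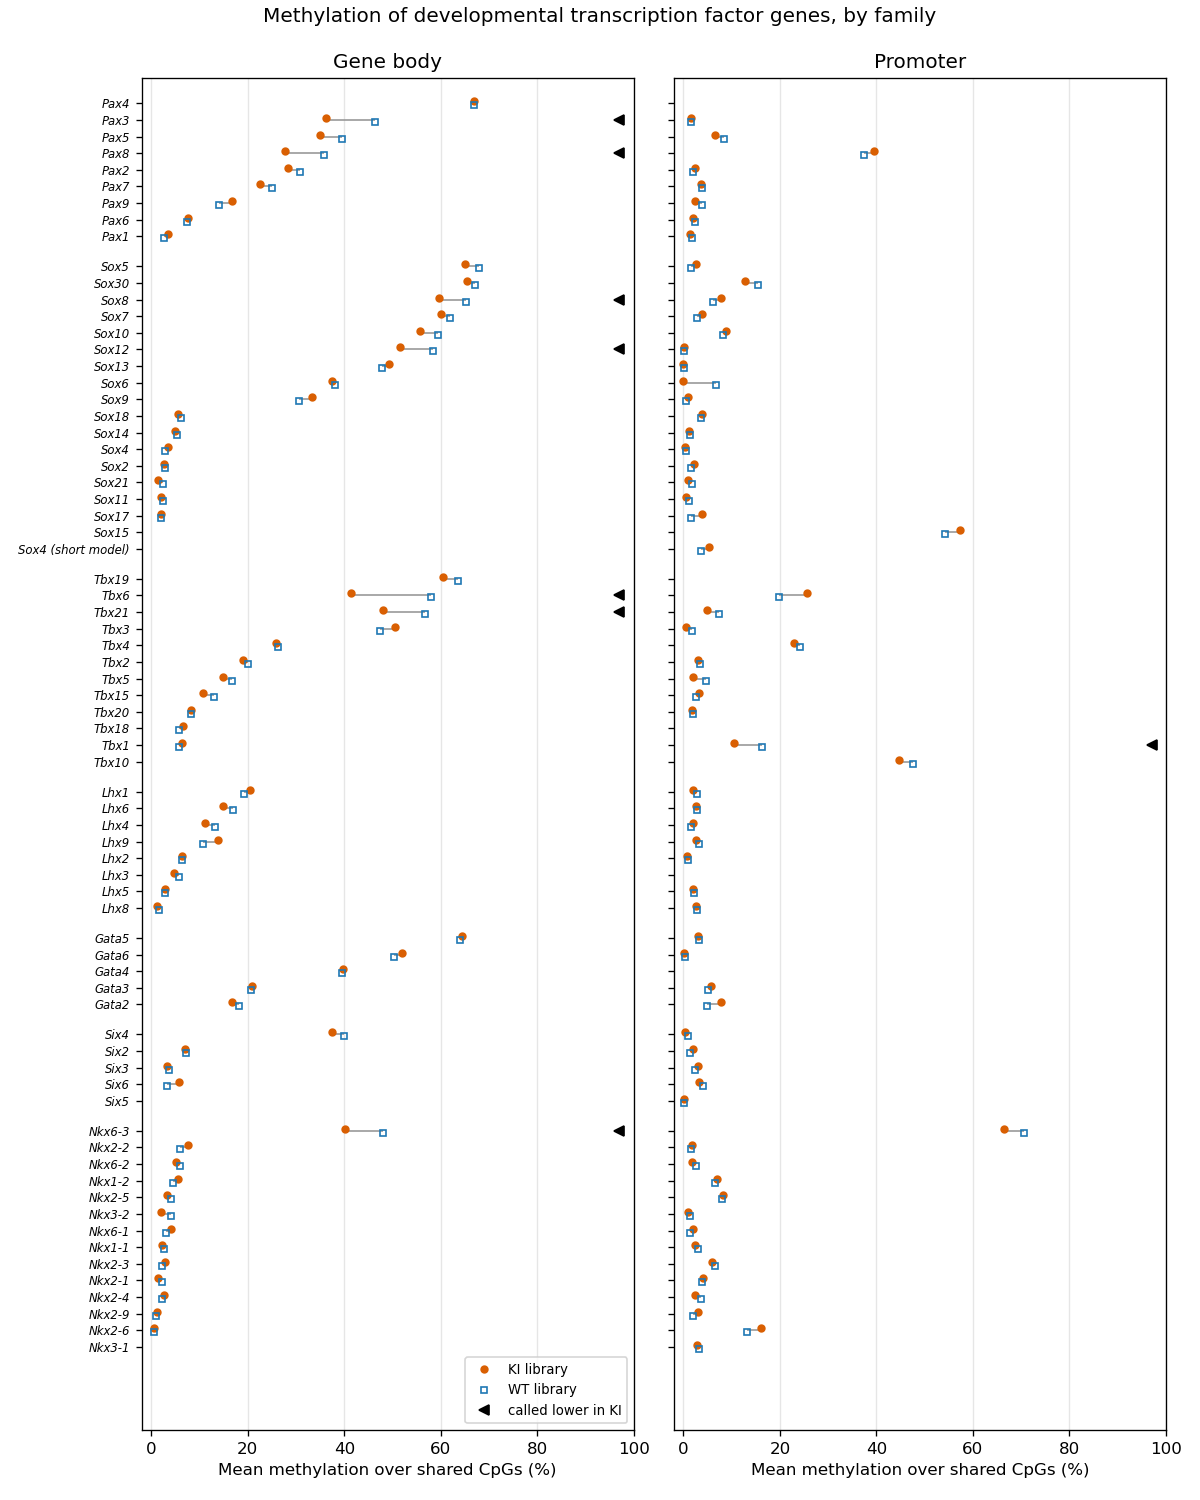
Mean methylation over shared CpGs (percent, horizontal axis) of the gene bodies and promoters of 71 of the 72 gene models, grouped by family and ordered by the WT body level, in the KI library (filled circles) and the WT library (open squares); a region with fewer than 5 shared CpGs has no symbol, and triangles mark regions called lower in KI. Most promoters lie near 0 in both libraries, most bodies are under 20% in WT, and the 7 bodies and 1 promoter called lower are each visible as a gap between the symbols.

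Along the genes, methylation stayed low far beyond the promoter. From 1 to 5 kb into the transcription factor genes the level was 8.97% in KI and 9.22% in WT, where all autosomal protein-coding genes had 32.9% in KI and 34.3% in WT. From 5 to 20 kb it was 16.5% in KI and 17.05% in WT, against 54.7% in KI and 56.9% in WT for all these genes. Beyond 20 kb it was 53.6% in KI and 56.5% in WT, a change of -2.90 ± 0.19 points, close to the -2.997 points of all these genes at that distance. CpG density followed the same split. Body CpGs with 30 or more CpG sites in the surrounding 500 bp, which were 41.2% of the transcription factors' body CpGs and 15.1% of those at all genes, averaged 6.78% in KI and 6.83% in WT. At all autosomal protein-coding genes such body CpGs averaged 17.3% in KI and 18.1% in WT. Body CpGs of the transcription factors with under 10 such sites averaged 50.2% in KI and 54.3% in WT, a change of -4.06 ± 0.27 points. At all these genes they averaged 56.5% in KI and 59.6% in WT. Introns of the transcription factor bodies changed by -1.51 points and exons by -0.33 points, against -2.81 and -1.86 points at all these genes.

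**Figure D2:**
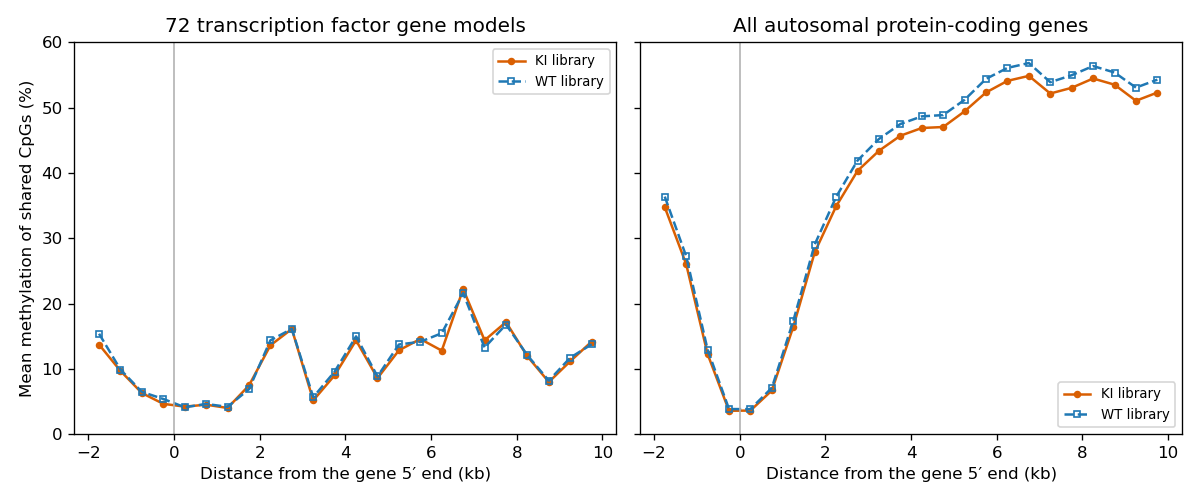
Mean methylation of shared CpGs (percent, vertical axis) in 500 bp steps from 2 kb upstream to 10 kb downstream of the gene 5′ end (kb, horizontal axis), in the KI library (solid line, circles) and the WT library (dashed line, squares), for the transcription factor genes (left) and all autosomal protein-coding genes (right). The transcription factor genes stay under 25% over the whole window in both libraries, whereas all genes together climb past 50%.

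The families differed in how methylated their bodies were. Nkx genes had median body levels of 2.82% in KI and 3.02% in WT over 13 genes. Lhx had 8.85% in KI and 8.57% in WT over 8 genes, Tbx with 19.0% in KI and 20.01% in WT over 11, and Pax with 27.7% in KI and 30.8% in WT over 9. Sox had 35.4% in KI and 34.4% in WT over 16, and Gata 39.6% in KI and 39.5% in WT over 5. Averaged over CpGs, the Pax bodies changed most, by -2.45 points, with 23.5% in KI and 26.0% in WT. Sox bodies changed by -1.59 points and Tbx bodies by -1.14 points, whereas Nkx bodies changed by 0.01 and Gata bodies by 0.003 points. The families overlap widely in level, and their order was not tested.

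At the bottom of the range, among bodies with at least 20 shared CpGs, were gene bodies whose shared CpGs had almost no methylation. RRBS read only part of each body. Nkx2-6, a pharyngeal and heart factor, had 0.473% in KI and 0.62% in WT over 76 body CpGs. Nkx2-9, a ventral neural tube factor, had 1.26% in KI and 0.99% in WT over 63. Lhx8, a factor of forebrain neurons and oocytes, had 1.22% in KI and 1.55% in WT over 36. Sox17, which acts in endoderm and endothelium, had 1.94% in KI and 1.98% in WT over 144. In the Sox21 coding stretch printed above the level was 0.634% in KI and 1.46% in WT, and no cytosine exceeded 4.88% in KI or 11.1% in WT. Its depth was 5 to 43 reads in KI and 18 to 68 in WT. Its reverse-strand cytosines had only 5 reads each in KI, too few to resolve low levels. The 41 bodies whose mean over both libraries was under 20% changed by between -2.20 and 3.03 points, and none of them was called in either direction. A call needed a change of at least 5 points, so a body under 5% in WT could not be called lower.

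At the top of the range, with the same minimum, were bodies with levels above the 55.7% that all autosomal protein-coding bodies averaged in WT. Sox5, a cartilage and neural factor with a very long gene, had 65.0% in KI and 67.9% in WT over 749 body CpGs. Sox30, a testis factor, had 65.3% in KI and 67.0% in WT. Tbx19, which drives the corticotroph cells of the pituitary, had 60.5% in KI and 63.6% in WT, and Sox7 had 60.02% in KI and 62.0% in WT. Among promoters, those above 50% in WT were Nkx6-3, with 66.5% in KI and 70.6% in WT, and Sox15, with 57.4% in KI and 54.2% in WT. Pax8 had a promoter level of 39.4% in KI and 37.4% in WT, and Tbx4, a hindlimb factor, of 23.0% in KI and 24.1% in WT. Within 500 bp of its 5′ end the Nkx6-3 promoter changed by 6.38 points, and at a coverage of at least 10 reads the Tbx4 promoter changed by 1.81 points. None of these 8 regions was called. Also among the highest were the Sox8 body, with 59.6% in KI and 65.2% in WT, and the Tbx1 promoter, with 10.5% in KI and 16.2% in WT. Both were called lower in KI and are described below. The bodies of Sox5, with a change of -2.94 points, and Tbx19, with -3.08 points, passed both tests defined below but not the minimum change.

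A region was called where 2 tests passed an adjusted p of 0.05 in the same direction and the mean changed by at least 5 points. The tests were Fisher's exact test, on the reads of the region added up, and the Cochran-Mantel-Haenszel test, which compares reads CpG by CpG, each with Benjamini-Hochberg adjustment over the regions of all genes. Of the transcription factor bodies, 7 of 67 were called lower in KI and 0 higher. Of all autosomal protein-coding bodies, 13.9% were called lower and 0.241% higher. Of the 67 promoters, 1 was called lower and 0 higher, against 3.34% lower and 0.327% higher for all these genes. None of the 28 flanks was called, against 8.43% lower and 0.53% higher. Of the 7 bodies called, 6 were among the 16 whose mean level was at least 40%, and at that level 1737 of 11379 autosomal protein-coding bodies were called lower. Those 16 had a median change of -3.01 points, against -2.20 points for all autosomal protein-coding bodies at that level.

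Pax3, a factor of neural crest and muscle precursors at chr1:78097842-78193709, fell to 36.3% in KI, against 46.5% in WT, over 49 body CpGs, a change of -10.2 ± 1.35 points, and 32 of its CpGs were lower in KI and 8 higher (adjusted p = 1.5e-29 by Fisher's exact test). Without CpGs inside CCGG sites the change was -14.9 points. Pax8, which drives thyroid and kidney development at chr2:24276071-24331119, fell to 27.7% in KI, against 35.9% in WT, with 36 CpGs lower and 7 higher. Away from annotated transcript starts the Pax8 body changed by -14.1 points, and at a coverage of at least 20 reads by -5.30 points. Its promoter, by contrast, had 39.4% in KI and 37.4% in WT, with 7 CpGs lower and 12 higher.

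Tbx21, known as T-bet, the regulator of type 1 helper T cells, at chr11:96959385-96976645, fell to 48.0% in KI, against 56.8% in WT, a change of -8.84 ± 1.16 points over 69 CpGs (adjusted p = 1.1e-22 by Fisher's exact test). Of these CpGs 51 were lower in KI and 13 higher. The lower level of the T cell marker Cd3e in KI, given above, stands beside this value, and its part in it was not tested. Tbx6, which specifies the mesoderm that forms somites, at chr7:133924997-133929074, fell to 41.5% in KI, against 57.9% in WT. This rests on 6 CpGs with 122 KI and 114 WT reads. The region was not called without CCGG cytosines or with the strands of each CpG summed, but a region left with fewer than 5 CpGs could not be called. Nkx6-3, a stomach and hindbrain factor at chr8:24263743-24269420, fell to 40.2% in KI, against 48.0% in WT, over 33 CpGs, but changed by -4.76 points and was not called at a coverage of at least 10 reads.

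Both Sox genes among the 7 were near the minimum change. Sox12, a neural and mesenchymal SoxC gene at chr2:152219347-152223782, fell to 51.5% in KI, against 58.3% in WT, and Sox8, a SoxE gene related to Sox9 at chr17:25702837-25707631, to 59.6% in KI, against 65.2% in WT. At a coverage of at least 10 reads these changes were -4.61 points for Sox12 and -4.31 points for Sox8, and neither was called. Their promoters were low in both libraries, with 0.141% in KI and 0.215% in WT for Sox12, and 7.78% in KI and 6.17% in WT for Sox8.

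The promoter that was called belongs to Tbx1, a factor of the pharyngeal arches and outflow tract at chr16:18581806-18588113. It fell to 10.5% in KI, against 16.2% in WT, over 81 CpGs, a change of -5.73 ± 1.20 points, with 48 CpGs lower and 20 higher (adjusted p = 0.00026 by Fisher's exact test). The change lay upstream of the gene. In the Tbx1 stretch printed above, 43 cytosines averaged 14.3% in KI and 24.0% in WT, 31 of them lower and 9 higher, at 7 to 51 reads in KI and 10 to 53 in WT. Within 500 bp of the 5′ end the promoter changed by -1.33 points and was not called, nor was it at coverage minimums of 10 reads (-4.95 points) or 20 reads (-4.85 points). The Tbx1 body had 6.38% in KI and 5.76% in WT.

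The values of some promoters that were not called were also examined. The Sox30 promoter had 12.7% in KI and 15.4% in WT over 115 CpGs and passed both tests below the minimum change. So did the promoters of Six4, Sox11, Nkx1-1 and Sox21, each lower in KI. The Gata2 promoter, of a blood stem cell factor, had 7.81% in KI and 4.85% in WT over 108 CpGs and passed both tests below the minimum change; at a coverage of at least 10 reads the change was 14.0 points and it was called higher. The Tbx6 promoter had 25.5% in KI and 19.8% in WT over 16 CpGs, and the Sox6 promoter 0% in KI and 6.67% in WT over 6 CpGs with 43 KI and 90 WT reads, and neither passed the tests.

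No tested promoter or body of Gata4, Gata6, Sox9 or Lhx2, which have known roles in cells of the liver, was called, although inside Gata6 1 cluster of CpGs was called lower and 1 higher. Gata4, a factor of liver sinusoids and endoderm, had a body level of 39.6% in KI and 39.5% in WT over 390 CpGs. Gata6, which acts in liver specification, had a promoter level of 0.0424% in KI and 0.294% in WT and a body level of 52.0% in KI and 50.2% in WT. Sox9, which marks bile duct cells, had a promoter level of 0.996% in KI and 0.60% in WT and a body level of 33.3% in KI and 30.6% in WT. Lhx2, needed in stellate cells, had a promoter level of 0.836% in KI and 0.94% in WT and a body level of 6.46% in KI and 6.34% in WT.

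No tested promoter or body of the endothelial SoxF genes was called either. The Sox17 promoter had 3.96% in KI and 1.49% in WT over 18 CpGs. The Sox18 promoter had 3.91% in KI and 3.72% in WT, its body 5.55% in KI and 6.21% in WT, and the Sox7 promoter 3.78% in KI and 2.72% in WT. Tbx3, which is active in liver progenitors, had a promoter level of 0.452% in KI and 1.75% in WT and a body level of 50.5% in KI and 47.4% in WT. At a coverage of at least 10 reads that body changed by -0.27 points. Neither of these Tbx3 regions was called.

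Among genes of immune cells, Gata3, a T cell factor, had a body level of 20.9% in KI and 20.7% in WT and a promoter level of 5.77% in KI and 5.02% in WT. At a coverage of at least 10 reads these changed by -0.66 points for the body and -2.33 points for the promoter. The Gata2 body had 16.7% in KI and 18.3% in WT. The Tbx21 promoter had 4.84% in KI and 7.44% in WT. Pax5, the B cell identity factor, had a promoter level of 6.60% in KI and 8.44% in WT and a body level of 35.0% in KI and 39.5% in WT over 472 CpGs, of which 280 were lower and 121 higher. Its body passed both tests, and the change of -4.52 ± 0.36 points was under the minimum. Without CCGG cytosines the change was -5.52 points and the Pax5 body was called lower.

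Changes inside the genes were located with clusters, runs of at least 5 shared CpGs with gaps of at most 100 bp. Of 604 clusters tested at the transcription factor genes, 49 at 19 genes were called lower in KI and 10 at 8 genes higher. At all autosomal protein-coding genes 10.8% of clusters were called lower and 0.646% higher. Pax genes held 24 of the 49, of 129 Pax clusters tested, and Pax5 alone 11 of its 34. Sox and Tbx genes held 10 each, of 148 and 79 tested. Of 370 clusters with a mean level under 20%, 3 were called lower and 4 higher, against 391 lower and 113 higher of 23882 clusters of all autosomal protein-coding genes at that level. Of 58 clusters between 40% and 60%, 18 were called lower and 3 higher, against 2476 lower and 120 higher of 9393.

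**Figure D3:**
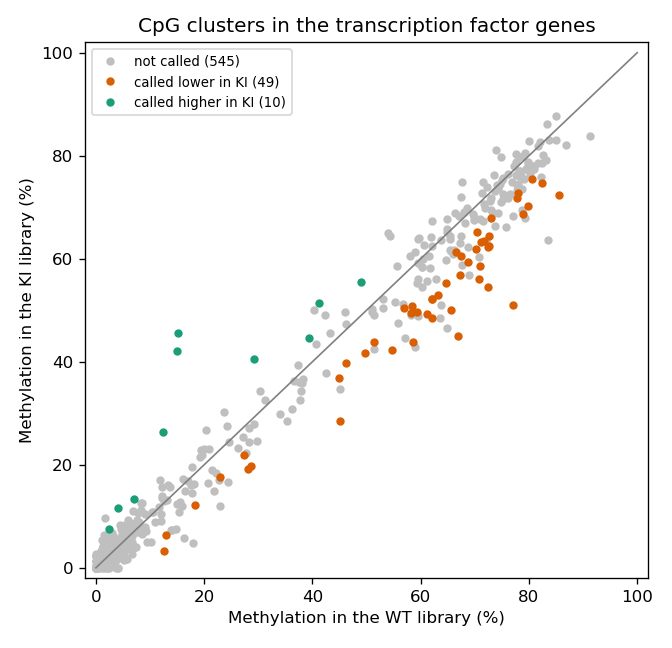
Mean methylation of each of the 604 tested CpG clusters in the KI library (percent, vertical axis) and in the WT library (percent, horizontal axis), with the line of equal levels. The 49 clusters called lower lie mostly at intermediate to high WT levels, the 10 called higher include Tbx3, Pax9 and Gata2 clusters well above the line, and the unmethylated clusters sit at the lower left corner in both libraries.

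The deepest fall was in the Sox5 stretch printed above, where 6 of 6 cytosines were lower and the mean was 51.0% in KI and 77.1% in WT. Its depth was 16 to 17 reads in KI and 8 in WT. Without CCGG cytosines fewer than 5 were left, so it could not be tested. A Pax7 intron cluster, chr4:139345836-139345926, had 45.0% in KI and 66.9% in WT, and a Pax2 intron cluster, chr19:44860341-44860427, had 54.6% in KI and 72.4% in WT. Pax7 marks muscle satellite cells and Pax2 kidney precursors. A Pax5 coding cluster, chr4:44704767-44704878, had 28.5% in KI and 45.0% in WT. These 3 were not called without CCGG cytosines or with strands summed. They held 6, 7 and 8 cytosines, and a region left with fewer than 5 could not be called.

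The best covered of the large falls was the Pax3 intron stretch, with 136 to 146 reads per cytosine in KI and 135 to 168 in WT. All 10 cytosines were lower in KI, and the mean was 50.1% in KI and 65.6% in WT. The fall was spread over the stretch and was deepest at single cytosines. At base 78128584 the level was 44.1% in KI and 74.8% in WT, and at base 78128665 it was 44.3% in KI and 73.5% in WT. Their partner cytosines fell less, to 53.4% in KI against 70.8% in WT at base 78128583, and to 50.4% against 63.3% at base 78128666. The end cytosine at base 78128697 had 76.4% in KI and 92.0% in WT. The cytosines read at 0.709% in KI and 3.55% in WT, and at 1.40% in KI and 3.66% in WT, lie in the CCGG sites at the ends of the stretch. The latter is the partner of base 78128697 and read far below it. In the Nkx2-2 stretch the CCGG cytosine at base 147006672 had 0% in both libraries. Its partner had 69.4% in KI and 54.4% in WT. Whether such end values give the level of the liver DNA was not tested, and they lower the stretch means. Without CCGG cytosines the mean change of the Pax3 stretch was -21.2 points. This stretch was called lower in every coverage and strand setting tried.

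Rises were fewer, and the largest were at low depth. The Tbx3 coding stretch had 45.6% in KI and 15.2% in WT over 6 cytosines of the reverse strand, at 5 to 6 reads in KI and 11 to 12 in WT. With strands summed its change was 8.80 points and it was not called. A Pax9 intron cluster, chr12:57793831-57793895, had 42.0% in KI and 14.9% in WT over 6 cytosines, at 52 KI and 86 WT reads in all. At a coverage of at least 10 reads fewer than 5 of them were left, so it could not be tested. The Gata2 intron cluster inside its promoter, chr6:88144339-88144648, had 26.4% in KI and 12.4% in WT over 22 cytosines, 16 higher and 3 lower.

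The rises at Nkx2-2, a factor of pancreatic islets and the ventral neural tube, were well covered. In the stretch printed above, 14 of 16 cytosines were higher in KI and 1 was lower, at 103 to 124 reads in KI and 85 to 125 in WT, and the mean was 51.5% in KI and 41.3% in WT (adjusted p = 2.7e-07 by Fisher's exact test). On the forward genome strand the mean was 57.6% in KI and 42.5% in WT, and on the reverse strand 45.4% in KI and 39.997% in WT. A neighbouring intron cluster, chr2:147006998-147007207, had 40.5% in KI and 29.1% in WT, 8 of 9 cytosines higher. Both were called higher in every coverage, CCGG and strand setting tried. The body of Nkx2-2 as a unit had 7.60% in KI and 6.04% in WT, under the minimum change.

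**Figure D4:**
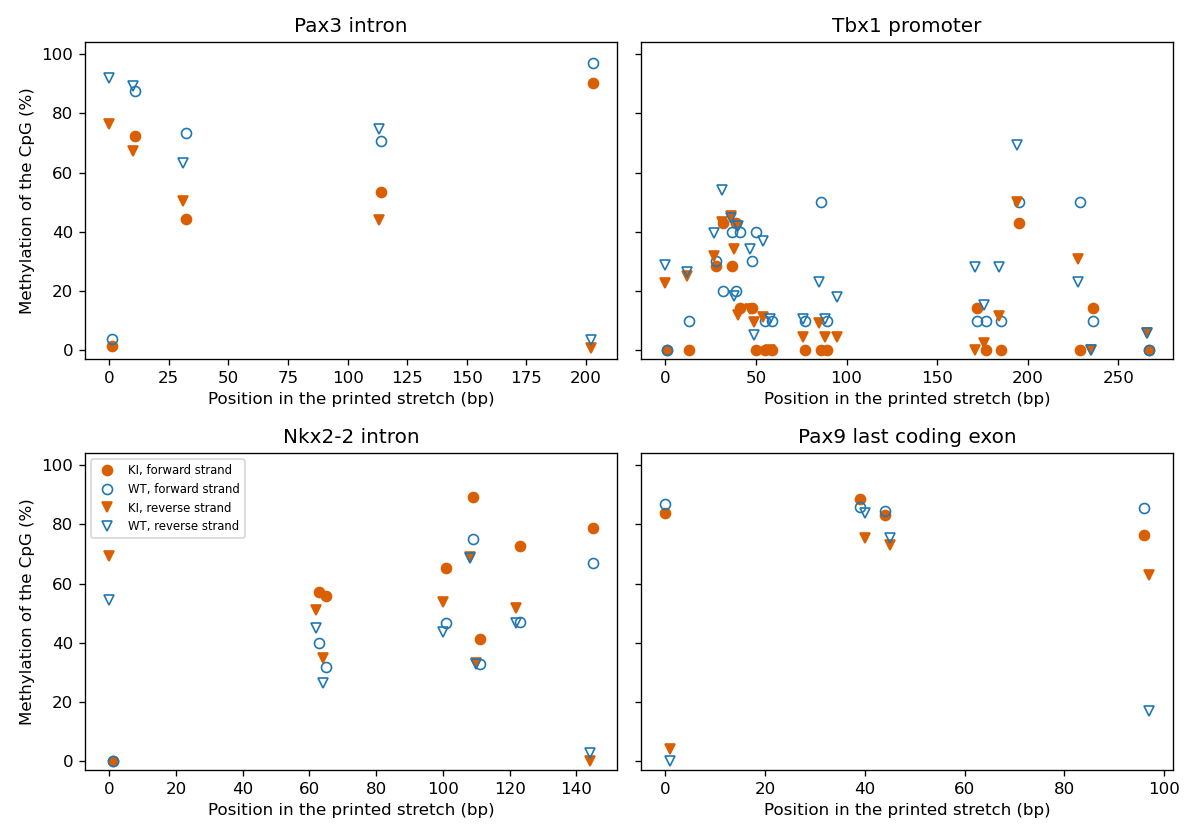
Methylation of each shared cytosine (percent, vertical axis) by its position in the printed Pax3, Tbx1, Nkx2-2 and Pax9 stretches (bp from the first base, horizontal axis), in the KI library (filled) and the WT library (open), with circles for the forward and triangles for the reverse genome strand. In the Pax3 stretch all 10 KI values are below WT, in the Nkx2-2 stretch 14 of 16 are above, in the Tbx1 stretch 31 of 43 are below, and in the Pax9 stretch the last CpG differs between its strands.

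Of the 14121 single CpGs, 24 at 16 genes passed an adjusted p of 0.05 by Fisher's exact test with a fall over 25 points, or 0.17%, against 0.447% of the CpGs of all autosomal protein-coding genes and 1.09% of all shared CpGs. With a rise over 25 points there were 8 at 5 genes, or 0.0567%, against 0.0481% and 0.0474%. The falls included a Tbx5 intron CpG at base 120316836 of chromosome 5, with 25.4% in KI and 64.2% in WT, and a Tbx15 pair at bases 99153241 and 99153281 of chromosome 3, with 44.6% and 59.0% in KI, against 69.8% and 86.3% in WT. Tbx5 acts in heart and forelimb and Tbx15 in mesenchyme.

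Some single CpGs moved apart from their neighbours or their own partner strand. In the last coding exon of Pax9, a factor of teeth and pharyngeal pouches, the reverse-strand cytosine at base 57810880 had 62.9% in KI and 16.9% in WT at 143 KI and 213 WT reads. The forward-strand cytosine of the same CpG had 76.4% in KI and 85.7% in WT. The stretch as a unit had 68.4% in KI and 65.0% in WT. At Tbx21 the cytosine at base 96962860 had 0% in KI and 100% in WT at 8 reads each, and that at base 96963411 had 90% in KI and 9.09% in WT.

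Over body CpGs sorted by the mean of both libraries, the fall was deepest at intermediate levels. Transcription factor body CpGs at 60% to 70% changed by -5.52 points, and those at 50% to 60% by -3.85 ± 0.99 points, where all autosomal protein-coding bodies changed by -7.39 and -7.65 points. At 90% to 100% the changes were -1.56 points and -1.23 points. The CpGs under 10%, which were 62.2% of the transcription factors' body CpGs, changed by -0.08 points. The sets differ in CpG density and coverage, and the difference between them was not tested.

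**Figure D5:**
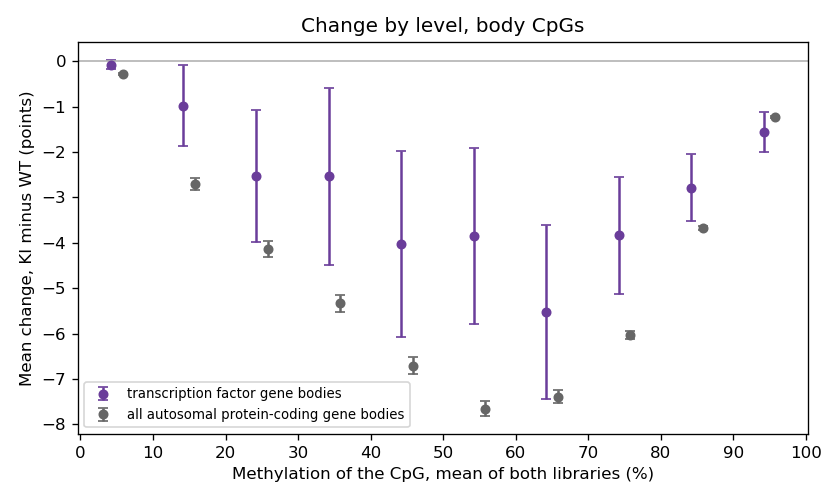
Mean change of body CpGs, KI minus WT (points, vertical axis), by the mean level of the CpG in both libraries (percent, horizontal axis, in steps of 10), for the transcription factor genes and for all autosomal protein-coding genes; bars are 95% intervals from counting error. The means of both sets are below 0 at every level, with the transcription factors at -0.08 points under 10% and -5.52 points between 60% and 70%.

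Other gene lists were described in the same way. The counts below stand beside the shares at all autosomal protein-coding genes. There 3.34% of promoters and 13.9% of bodies were called lower, and 0.327% and 0.241% higher. Of 45 other developmental homeobox and bHLH genes, such as Dlx, Irx and Neurog genes, 43 promoters could be tested, with medians of 2.47% in KI and 1.97% in WT, and none was called. Their 44 tested bodies had medians of 4.66% in KI and 4.88% in WT, and Dlx6 and Irx6 were called lower. Of cofactors that bind members of the 7 families, such as the Eya partners of Six-type factors and the Lmo and Ldb partners of Lhx, 17 promoters were tested and 0 called. The 21 cofactor bodies had medians of 52.1% in KI and 53.8% in WT, and 3 were called lower: Lmo1 had 61.6% in KI and 68.6% in WT, Eya4 56.5% in KI and 64.0% in WT, and Zfpm2, a partner of Gata4, 55.7% in KI and 61.2% in WT. Genes of the Polycomb proteins themselves had 0 of 15 promoters and 0 of 14 bodies called.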

How the data were processed

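Liver DNA of 3 pooled KI and 3 pooled WT mice was compared, 1 RRBS library per genotype. The authors aligned reads to mm9 with Bismark, kept unique matches and deposited, per cytosine, the coverage as a read count and the methylated and unmethylated shares as percent values. Methylated reads were recovered by rounding. All deposited rows carry the same strand mark, so strands were read from the mm9 genome, and genes came from GENCODE mm9. A CpG was used where each library covered it with 5 reads or more. Single CpGs were tested with Fisher's exact test (called beyond 25 points), and regions with the same test on their added reads together with a Cochran-Mantel-Haenszel test by CpG (called from 5 points). Tests were two-sided, and p-values were adjusted genome-wide by Benjamini-Hochberg (Python 3.11.15, scipy 1.17.1, numba 0.67.0). Scripts were tested on simulated data. Named regions were those called, the highest and lowest in WT with at least 20 shared CpGs, the clusters with the largest changes, and members with known liver roles. The Tbx6, Sox6, Sox30, Six4, Sox11, Nkx1-1 and Sox21 promoters, Nkx2-2, Pax9 and Tbx21 single values and other single CpGs were named after their values were seen. Genes, lists and tests were chosen with earlier results of these data known. The separate values of 1 gene are not reported here.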

Additional observations from a re-analysis of the deposited data

How the results depend on the processing

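No paired analysis was possible because each genotype has 1 library and the labels give no replicate numbers. Each value of a named gene or cluster was compared with the main one, once per setting. Of these comparisons, 390 kept their call or, where not called, stayed uncalled within counting error. In 30 the region was no longer called, which includes regions left with fewer than 5 CpGs and so not tested, and in 8 it became called. In 17 a region not called in either setting moved beyond counting error, and in 0 a called value changed sign. Settings that changed only the test or the minimum change left the mean as it was. A called region stays called with either test alone or no minimum change, so for it those comparisons could not differ. Promoters called lower numbered 1, and 0 at minimums of 10 reads, 20 reads or 10 points or within 500 bp, and 6 with no minimum change; those called higher numbered 1 at 10 reads and 1 with no minimum change, and 1 flank was called higher at 10 reads. Bodies called lower numbered 7, and 4 at 10 reads, 4 at 20 reads, 2 at 10 points and 19 with no minimum change, when 2 were called higher. Clusters called lower numbered 49, and 17 at 10 points and 74 with no minimum change; those called higher numbered 10, and 5 at 10 points, 6 at 20 reads and 24 with no minimum change. Single CpGs called lower numbered 24, and 78 at over 10 points and 13 with strands summed; those called higher numbered 8, and 17 at over 10 points and 3 with strands summed. The body mean change of -1.04 points was -1.53 away from annotated starts, -1.26 at 20 reads, -1.37 with reads summed and -0.65 without Sox5 and Pax5, the members with the most body CpGs. With reads summed over CpGs the mean changes turned to 0.44 points for flanks and 0.0493 points for promoters, so their direction depends on how CpGs are weighted. The causes were not tested. With 1 library per genotype, differences between mice of a genotype cannot be seen, and CpGs under about 10 reads carry wide counting error.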

Other observations

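In the last exon of Pax9, a second reverse-strand cytosine 31 bp further on, at base 57810911 of chromosome 12, had 60.1% in KI and 16.5% in WT at 143 KI and 212 WT reads, close to the values of base 57810880. Within the Gata6 coding sequence a cluster of 68 cytosines had 44.5% in KI and 39.3% in WT and was called higher, while a cluster of 6 cytosines in a later coding exon had 70.2% in KI and 79.7% in WT and was called lower. Coverage in 1 library only was also counted: among 9649 cytosines of these genes with at least 20 reads in KI, 0 had no read in WT, and among 9376 with at least 20 reads in WT, 0 had no read in KI, against 661 of 1131757 and 481 of 1098325 at all autosomal protein-coding genes. Sox8, Nkx2-5, Six2 and Six3 lie on chromosome 17, which also carries Uhrf1, and within 1 Mb of each of them this count was 0 in both directions. Each window held only 2155 to 5036 such cytosines per library. At the share of all genes few would be counted in any case, so the 0 says little about sequence near Uhrf1.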
